A study of Xenopus tropicalis with 11 samples.

Results

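The regions described here are p300 peaks of the early gastrula that coincided with a peak of the corepressor TLE and with none of the organizer factors Otx2, Lim1 or Gsc. They were chosen from the peak lists alone, as distinct p300 intervals on the 10 chromosomes that overlapped a TLE interval by at least 1 bp and no interval of the factors. There were 9868 of them among 151050 p300 intervals on the chromosomes, or 6.53%, and they are called factor-free shared sites below. The choice used the p300, TLE, Otx2, Lim1 and Gsc calls, so those values are given as a description, and only the histone marks and the distances that the choice did not fix are compared. The required overlap still bounds the distance between p300 and TLE summits.

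p300 is an acetyltransferase and coactivator that is recruited to enhancers by DNA-bound transcription factors and can acetylate lysine 27 of histone H3. TLE proteins, the vertebrate relatives of Drosophila Groucho, are corepressors that bind no DNA of their own and are brought to it by repressors, among them Gsc and TCF proteins. H3K4me1 marks enhancers whether or not they are active, and H3K27ac is typical of active enhancers and promoters. In the gastrula, Otx2 and Lim1 (Lhx1) act in head formation by the Spemann-Mangold organizer, and Gsc is a repressor expressed there.

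The study comprised 11 libraries from whole Xenopus tropicalis embryos of the Nigerian A strain at stage 10.5, with no genotype or treatment named in the labels. Each chromatin sample was made from 2000 to 3000 fixed embryos. The 7 immunoprecipitated libraries targeted Otx2, Lim1, Gsc, TLE, p300, H3K4me1 and H3K27ac, and 4 inputs served as controls. p300 and TLE shared an input, as did Otx2 and Lim1, and H3K4me1 and H3K27ac, while Gsc had its own. Each antibody had 1 library, so there is no replicate error. Intervals below are 95% intervals that cover counting error only, since peaks are not replicates. The depth of the libraries is unknown here. Whole embryos mix many cell types, so TLE and p300 may occupy a shared site in different cells, and binding in fewer cells cannot be told apart from weaker binding per cell.

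Factor-free shared sites were narrow and weakly enriched for p300. Their p300 intervals were 75 to 706 bp wide with a median of 111 bp (110 to 112), and the middle of the distribution ran from 87 bp at the lower quartile to 147 bp at the upper. Sites of TLE and p300 with a factor had a median width of 203 bp, and p300 sites with neither TLE nor a factor one of 99 bp. The choice of sites sets these differences in part, since a wider interval is more likely to meet a TLE or factor peak. The fold enrichment, which is the authors' ratio of signal to local background, had a median of 3.91 (3.88 to 3.94) and placed the typical site at percentile 30.6 of all chromosomal p300 intervals. It was 5.74 with a factor, at percentile 66.1, and 4.21 without TLE or a factor, at percentile 38.3. A −log10 q of at least 10 was reached by 8.11% of factor-free shared sites, 51.3% of those with a factor and 15.1% of the p300 sites without TLE or a factor. More than 1 summit was found in 4.25, 27.6 and 2.23% of the same groups.

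The TLE side of these sites was broader than the p300 side. They were covered by 9757 TLE intervals with a median width of 158 bp, a median TLE fold of 5.56 and a typical fold percentile of 44.6 among the 137474 chromosomal TLE intervals. The TLE interval was the wider of the pair at 71.6% of sites, and the p300 interval lay wholly inside it at 42.2%. At TLE and p300 sites with a factor these shares were 64.1 and 41.5%. The full chromosomal lists also differed this way, with median widths of 170 bp for TLE and 131 bp for p300. Only 31 sites met more than 1 TLE interval, and 140 TLE intervals met more than 1 site. Within the sites, p300 fold and TLE fold were weakly related, with a Spearman's rho of 0.146 over 9868 sites that share an input library. The corresponding rho was 0.225 over the 61119 sites with a factor.

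The name factor-free holds for the p300 interval itself and not for its surroundings. Of the 9757 TLE intervals, 956, or 9.80%, met a factor peak beyond the edge of the p300 interval, in 915 cases an Otx2 peak. A factor peak lay within 1 kb of 48.8% (47.8 to 49.8) of the sites. The share was 44.1% (43.6 to 44.5) for p300 sites without TLE or a factor. At the limits of the rule, sites just inside and just outside had these values. The 251 sites with a factor peak at most 20 bp away had a median width of 91 bp, and 38.2% (32.2 to 44.6) met H3K4me1 and 15.1% (10.9 to 20.2) H3K27ac. The 389 shared sites whose largest factor overlap was at most 20 bp had a median width of 98 bp and met these marks in 34.7% (30.0 to 39.7) and 13.9% (10.6 to 17.7) of cases. Likewise, the 211 sites with at most 20 bp of TLE overlap met H3K4me1 in 25.1% (19.4 to 31.5) of cases, and the 184 p300 sites that a TLE peak approached to within 20 bp without touching did so in 32.1% (25.4 to 39.3).

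The summits of p300 and TLE lay close together at factor-free shared sites, but the required overlap bounds their distance by the interval widths. Sites with a factor meet the same overlap rule, with wider intervals. The median distance between them was 23 bp (22 to 23), the lower and upper quartiles were 10 and 49 bp, and the largest distance was 463 bp. Summits lay within 50 bp of each other at 76.2% (75.4 to 77.1) of sites, against 77.9% of all 70987 chromosomal p300 intervals with TLE, so the share was near that background. At sites with a factor the median was 20 bp and the share 78.2% (77.8 to 78.5). Compared within 10 strata of p300 interval width, the odds of summits within 50 bp were lower without a factor, with a Mantel-Haenszel odds ratio of 0.807 (0.764 to 0.852). A ratio was called different where its interval left out 1. This call ended, at 0.967 (0.90 to 1.04), when sites with a factor within 1 kb were counted as factor sites and, at 0.972 (0.712 to 1.33), where both coregulator peaks reached a −log10 q of 10, and the ratio turned to 1.11 (1.05 to 1.17) within strata of p300 fold. In intervals under 100 bp the medians were 21 bp without and 20 bp with a factor, and in those of 200 bp or more 27.5 bp (24 to 30) and 20 bp (20 to 20).

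**Figure D1:**
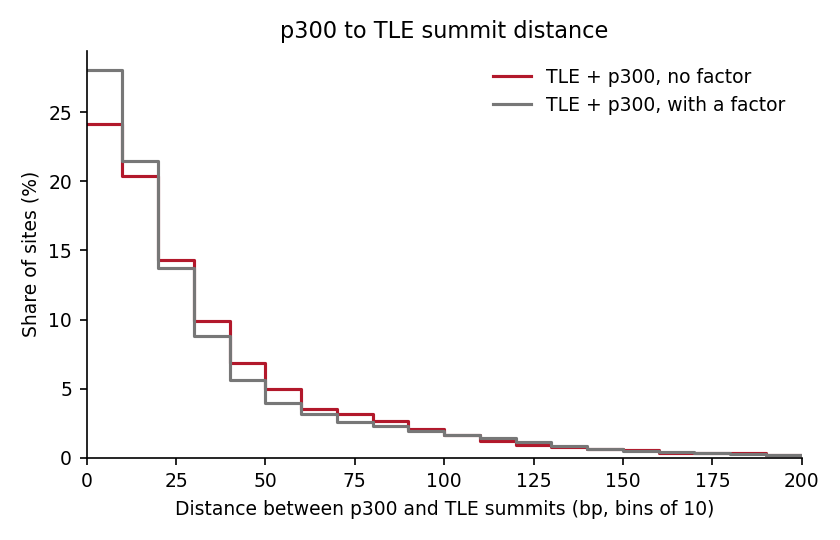
Distance between the p300 summit of highest fold and the nearest TLE summit (horizontal axis, bp, in bins of 10, shown up to 200 bp) against the share of sites in each bin (vertical axis, percent), for factor-free shared sites (red) and TLE and p300 sites with a factor (grey). Both distributions are highest in the first bin, with medians of 23 and 20 bp.

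H3K4me1 without H3K27ac was the commonest mark pattern among factor-free shared sites that carried a mark, as it was among all chromosomal p300 intervals. H3K4me1 was met by 3479 of the 9868 sites, or 35.3% (34.3 to 36.2), close to the 34.8% of all chromosomal p300 intervals. H3K27ac was met by 1193 sites, or 12.1% (11.5 to 12.7), below the 21.2% of all p300 intervals. Both marks were present at 8.94% (8.38 to 9.52), with a background of 16.4%, and H3K4me1 alone at 26.3% (25.5 to 27.2), with a background of 18.4%. H3K27ac alone was found at 3.15% and neither mark at 61.6%, against 4.79 and 60.4% of all chromosomal p300 intervals. Among the sites with H3K4me1, 25.4% (23.9 to 26.8) also met H3K27ac, against 47.2% of all chromosomal p300 intervals with H3K4me1.

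**Figure D2:**
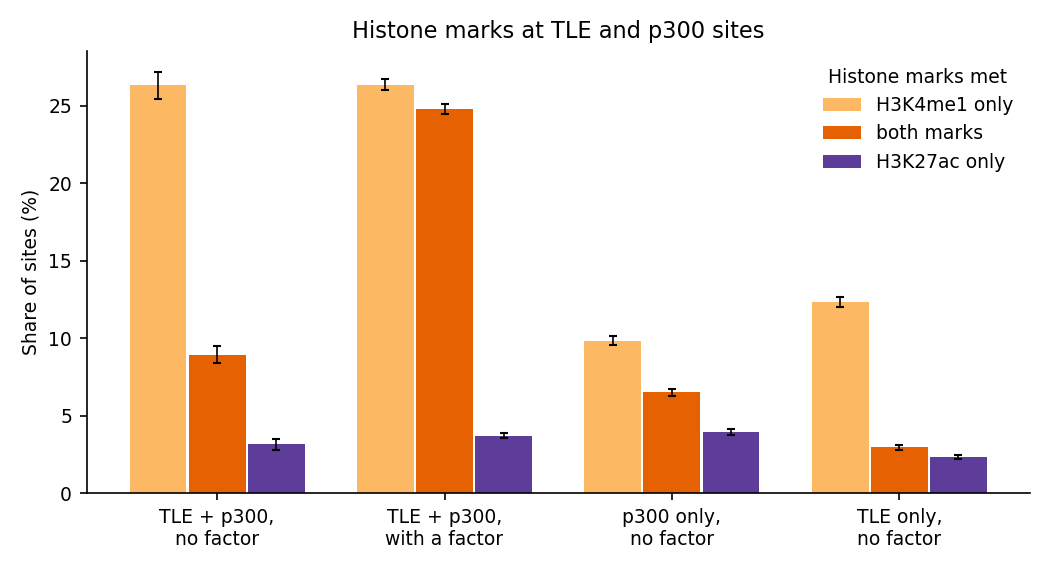
Share of sites (vertical axis, percent) that met H3K4me1 only, both marks or H3K27ac only, for 4 classes of site on the horizontal axis, with 95% exact binomial intervals. The last class is counted on TLE intervals and the others on p300 intervals. H3K4me1 only was as frequent at factor-free shared sites (26.3%) as at those with a factor (26.4%), where both marks reached 24.8%.

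Marks that met the p300 interval were set against those of p300 sites without TLE or a factor. Counted this way, the factor-free shared sites differed in H3K4me1 far more than in H3K27ac. H3K4me1 was met by 35.3% of the shared sites and by 16.4% (16.0 to 16.7) of the 44695 p300 sites without TLE, with a Mantel-Haenszel odds ratio of 2.61 (2.49 to 2.74) within strata of width. Over all chromosomal p300 intervals the share was 34.8%. The shared sites were thus near that background, and the p300 sites without TLE were below it. H3K4me1 alone was found at 26.3% and 9.84% of these sites. H3K27ac was met by 12.1 and 10.5% (10.2 to 10.8), with an odds ratio of 1.10 (1.03 to 1.18). That small excess ended or turned in 8 of its 13 alternatives. It turned to 0.943 (0.872 to 1.02) when the p300 summit had to lie inside the mark, to 0.949 (0.886 to 1.02) within joint strata of width and fold, and to 0.887 (0.834 to 0.943) when Lim1 and Gsc peaks were disregarded, and it was 2.74 (2.05 to 3.65) where both coregulator peaks reached a −log10 q of 10. Counted within 500 bp of the interval, H3K27ac was more frequent near shared sites, at 30.4% (29.5 to 31.3) against 18.7% (18.4 to 19.1). H3K4me1 was then at 50.4 and 26.1%, and no ratio was computed at that range. Among sites with H3K4me1, H3K27ac was less frequent with TLE, at 25.4% against 39.8% (38.7 to 41.0), with an odds ratio of 0.494 (0.451 to 0.541). These shares are taken over the sites with H3K4me1, which were themselves more frequent with TLE. Counted over all sites, both marks were met by 8.94% (8.38 to 9.52) of shared sites and 6.52% (6.29 to 6.75) of p300 sites without TLE. The same order by TLE was present at p300 sites with a factor, 61119 with TLE and 35368 without, so it was not particular to factor-free sites. H3K4me1 was met by 51.2 and 29.8% of them, and H3K27ac by 48.4 and 55.6% of those with H3K4me1. No ratio was computed for that pair. The restriction to H3K4me1 sites was chosen after seeing the data, here and below.

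The H3K4me1 difference held in a stricter list of p300 and TLE peaks but not when every list was made strict. With p300 and TLE limited to a −log10 q of at least 10, which left 376 sites, the H3K4me1 odds ratio was 4.48 (3.58 to 5.6). The ratio of H3K27ac among H3K4me1 sites was then 0.811 (0.565 to 1.16), and its call ended. With the same limit on all 7 lists the H3K4me1 ratio turned to 0.602 (0.547 to 0.661) and that of H3K27ac among H3K4me1 sites to 1.57 (1.22 to 2.02). By its construction that setting counts sites with weaker factor peaks as factor-free: 17980 of its 18356 sites, or 98.0%, met a weaker peak of Otx2, Lim1 or Gsc. It also limits the mark lists: H3K4me1 was met by 5.22% of its sites and 4.56% of the 23316 p300 sites they were set against. The part of each limit in the turn of the ratios was not tested.

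The same contrast was present on each chromosome. Factor-free shared sites numbered 413 to 1591 per chromosome and made up 6.05 to 7.01% of its p300 intervals. H3K4me1 was met by 31.7 to 37.3% of them, and by 14.7 to 18.5% of p300 sites without TLE or a factor, so the ranges over the 10 chromosomes did not overlap. The share over all chromosomal p300 intervals, 34.8%, lay within the range of the shared sites and above that of the others. H3K27ac ranged from 10.5 to 16.5% and from 9.11 to 13.1%, and these ranges did overlap. Among H3K4me1 sites, H3K27ac was met by 24.1 to 34.5% of shared sites and 36.7 to 43.3% of the others, with a background of 47.2%. The shared sites of chromosome 10 had the highest values for H3K27ac, at 16.5% of all and 34.5% of those with H3K4me1, and the remaining chromosomes reached at most 13.0 and 25.3%.

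Set against TLE sites without p300 or a factor, counted on TLE intervals, both marks were more frequent. Of the 9757 TLE intervals at factor-free shared sites, 37.4% (36.4 to 38.4) met H3K4me1, against 15.3% (15.0 to 15.7) of the 41272 TLE intervals without p300 or a factor and 32.8% of all chromosomal TLE intervals. The odds ratio within strata of TLE width was 2.87 (2.72 to 3.01). H3K27ac was met by 13.4% (12.8 to 14.1) and 5.28% (5.07 to 5.50), with a background of 16.9% and an odds ratio of 2.59 (2.40 to 2.80). Both ratios kept their direction and call in all 13 alternatives tried for each, with H3K4me1 at 2.20 or more and H3K27ac at 2.12 or more. With every list made strict they reached 21.6 and 29.6. Leaving out the TLE intervals that themselves met a factor peak gave 2.79 and 2.39. Among the TLE intervals with H3K4me1, H3K27ac was met by 27.3% (25.8 to 28.7) with p300 and 19.3% (18.4 to 20.3) without, an odds ratio of 1.5 (1.35 to 1.66).

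Set against TLE and p300 sites with a factor, marks were less frequent, and the H3K4me1 difference was not called within strata of width. H3K4me1 was met by 51.2% (50.8 to 51.6) and H3K27ac by 28.5% (28.1 to 28.9) of the 61119 sites with a factor. Without strata the odds ratios were 0.520 (0.497 to 0.543) for H3K4me1 and 0.345 (0.324 to 0.368) for H3K27ac. Within strata of width they were 1.05 (0.997 to 1.10), which was not called, and 0.851 (0.795 to 0.912). The H3K4me1 ratio lay on either side of 1 across its 12 alternatives, called lower in 5 and higher in 3. It was 0.677 (0.634 to 0.724) when sites with a factor within 1 kb counted as factor sites. Within strata of p300 fold in place of width, the ratios were 0.826 (0.788 to 0.866) for H3K4me1 and 0.612 (0.572 to 0.654) for H3K27ac, both called lower. In the narrowest class, up to 87 bp, H3K4me1 was met by 26.7% of sites without and 27.3% of sites with a factor, and H3K27ac by 8.68 and 10.3%. In the widest class, above 147 bp, these shares were 46.5 and 59.8% for H3K4me1 and 17.8 and 35.6% for H3K27ac. That class has no upper limit, so widths were not matched within it. Of its sites, 866 of 2433 without and 31255 of 42442 with a factor were 200 bp or wider. The H3K27ac ratio turned to 1.03 (0.782 to 1.35) in the strict p300 and TLE lists and to 1.14 (1.03 to 1.25) with every list strict. It turned to 1.01 (0.95 to 1.08) when Lim1 and Gsc peaks were disregarded, and it was 0.342 (0.302 to 0.387) when sites with a factor within 1 kb counted as factor sites. Among sites with H3K4me1, H3K27ac was met by 25.4% without and 48.4% (47.9 to 49.0) with a factor, an odds ratio of 0.764 (0.701 to 0.833) within strata of width. That call ended in the strict p300 and TLE lists, at 0.912 (0.652 to 1.28), and the ratio was 0.320 (0.272 to 0.376) when sites with a factor within 1 kb counted as factor sites.

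Mark shares were also compared by class of p300 fold. The sites were divided at p300 folds of 3.38, 3.91 and 4.65, the quartiles of the factor-free shared sites. H3K4me1 was met by 35.0, 32.5, 34.0 and 39.5% of the shared sites from the lowest class to the highest, and by 26.0, 18.2, 15.4 and 10.2% of p300 sites without TLE or a factor. The gap between them was thus widest in the highest class. That class has no upper limit, so strengths were not matched within it. It held 2467 shared sites and 15354 p300 sites without TLE or a factor, whose upper quartiles of fold over all sites were 4.65 and 5.22. H3K27ac was met by 13.8, 11.4, 10.2 and 12.8% of the shared sites and by 18.5, 12.1, 9.94 and 5.06% of the others, so that the order of the classes changed from the weakest to the strongest peaks. By TLE fold, H3K4me1 was met by 32.6% of shared sites in the lowest class and 42.4% in the highest, and H3K27ac by 15.2 and 11.6%. These shares describe the lists, and the dependence on fold was not tested.

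**Figure D3:**
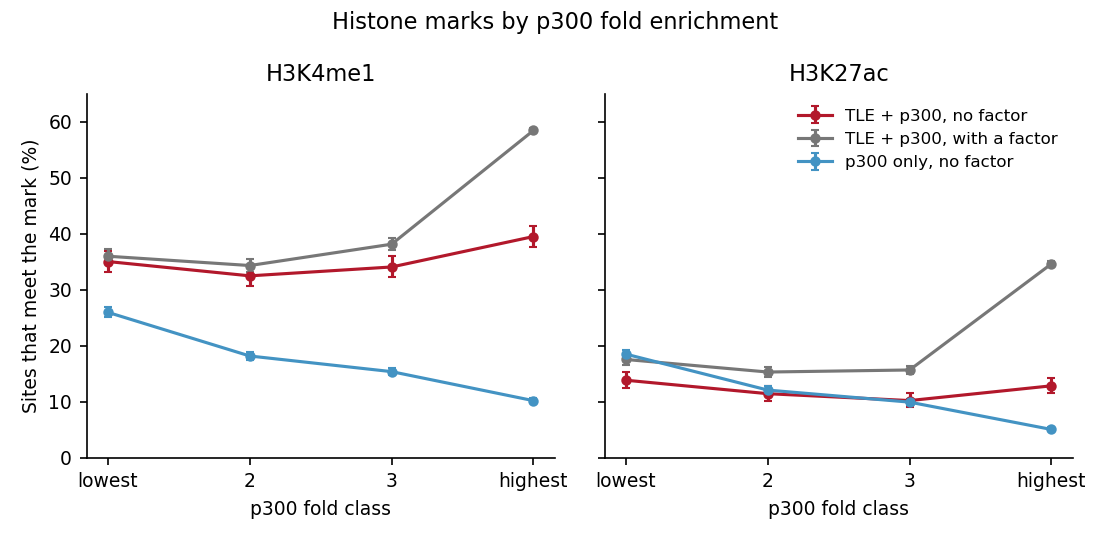
Share of sites that met H3K4me1 (left) and H3K27ac (right), in percent, by class of p300 fold enrichment with limits at 3.38, 3.91 and 4.65 (horizontal axis), for factor-free shared sites (red), TLE and p300 sites with a factor (grey) and p300 sites without TLE or a factor (blue). Bars are 95% exact binomial intervals. In the highest class H3K4me1 was met by 39.5% of factor-free shared sites and 10.2% of p300 sites without TLE or a factor.

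Factor-free shared sites lay near Otx2 peaks. They lay somewhat nearer than p300 sites without TLE, a difference that the choice of sites sets in part. The median gap to the nearest Otx2 peak was 1284 bp (1234 to 1335), the lower and upper quartiles were 396 and 3082 bp, and 3.77% of sites lay more than 10 kb away. For p300 sites without TLE or a factor the median was 1736 bp (1705 to 1765). An Otx2 peak lay within 1 kb of 43.6% (42.7 to 44.6) of shared sites and of 36.8% (36.3 to 37.2) of p300 sites without TLE, with 38.0% for both together. The odds ratio within strata of width was 1.32 (1.26 to 1.38), and it stayed between 1.19 and 1.96 over its 9 alternatives. None of these left out the sites whose own TLE interval met a factor peak, although 915 of the 9757 TLE intervals reached an Otx2 peak. Without those sites, a restriction chosen after seeing the data, 3352 of 8897 had an Otx2 peak within 1 kb. By its construction this restriction removes shared sites next to a factor peak, in most cases Otx2, and none of the p300 sites without TLE. The lower share is therefore set in part by the restriction, and nothing is drawn from its nearness to 36.8%. No ratio was computed for it. The nearest Lim1 peak was at a median of 4186 bp and the nearest Gsc peak at 24000 bp, against 4783 and 30146 bp for p300 sites without TLE. At short range the order for Lim1 was the other way, with a Lim1 peak within 500 bp of 9.50% (8.92 to 10.1) of shared sites and 11.6% (11.3 to 11.9) of p300 sites without TLE, and within 1 kb of 17.7% (16.9 to 18.4) and 18.5% (18.1 to 18.8). These medians also follow the lengths of the lists, which held 166593 Otx2, 81843 Lim1 and 17683 Gsc intervals on the chromosomes.

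**Figure D4:**
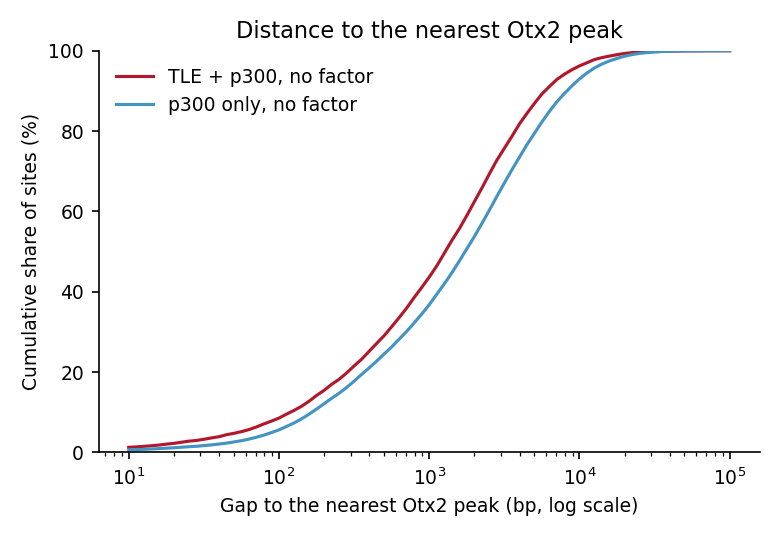
Cumulative share of sites (vertical axis, percent) by gap to the nearest Otx2 peak (horizontal axis, bp, log scale), for factor-free shared sites (red) and p300 sites without TLE or a factor (blue). At 1 kb the red curve stands at 43.6% and the blue one at 36.8%.

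The Otx2 peaks near factor-free shared sites were examined for the coregulators. The shares for TLE are in part set by the choice of sites, since 915 of the 9757 TLE intervals at the sites themselves reached an Otx2 peak. Of the 4307 sites with an Otx2 peak within 1 kb, 72.3% (70.9 to 73.6) had a nearest Otx2 peak that met TLE, 61.3% (59.8 to 62.8) one that met p300 and 52.4% (50.9 to 53.9) one that met both. For the 16439 p300 sites without TLE or a factor that had such a neighbour, the Otx2 peak met TLE in 8219 cases (49.2 to 50.8%), p300 in 59.6% (58.8 to 60.3) and both in 40.5% (39.8 to 41.3). Over all chromosomal Otx2 peaks, 49.3% met TLE and 50.9% met p300. Without the sites whose own TLE interval met a factor peak, a restriction chosen after seeing the data, 3352 sites had an Otx2 peak within 1 kb, which met TLE at 64.7% (63.1 to 66.4), p300 at 62.8% (61.2 to 64.5) and both at 51.5% (49.8 to 53.2). The neighbouring Otx2 peaks had like strengths, with median folds of 3.78 and 3.71. A TLE and p300 site with a factor lay within 1 kb of 25.2% (24.3 to 26.1) of factor-free shared sites and of 16.3% (16.0 to 16.6) of p300 sites without TLE, and with the same restriction of 21.4% (20.5 to 22.3) of 8897 shared sites.

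Both marks were less frequent away from Otx2, and far from it H3K4me1 remained more frequent at factor-free shared sites than at p300 sites without TLE. The fall was not steady: within 100 bp of Otx2, H3K4me1 was met by 43.6% (40.2 to 47.0) of 844 shared sites, against 34.9% of p300 sites without TLE or a factor. At a gap of 101 to 500 bp, where shared sites met both marks most often, H3K4me1 was met by 52.1% (49.9 to 54.3) of 2019 sites and H3K27ac by 25.9% (24.0 to 27.8). At 2001 to 5000 bp these shares were 28.3% (26.5 to 30.1) and 6.23% (5.30 to 7.27) of 2407 sites. Beyond 10 kb they were 28.2% (23.7 to 33.1) and 6.45% (4.18 to 9.45) of 372 sites. In p300 sites without TLE or a factor, H3K4me1 was met by 37.9% (36.8 to 38.9) at 101 to 500 bp, 8.04% (7.55 to 8.55) at 2001 to 5000 bp and 6.86% (6.0 to 7.80) beyond 10 kb. H3K27ac was met there by 24.0, 5.21 and 4.92%. Within 100 bp of Otx2 the shared sites met H3K27ac less often, at 19.1% (16.5 to 21.9) against 25.2% (23.5 to 26.9), and at 501 to 1000 bp the shares were 12.2% (10.5 to 14.0) and 9.72% (8.95 to 10.5).

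**Figure D5:**
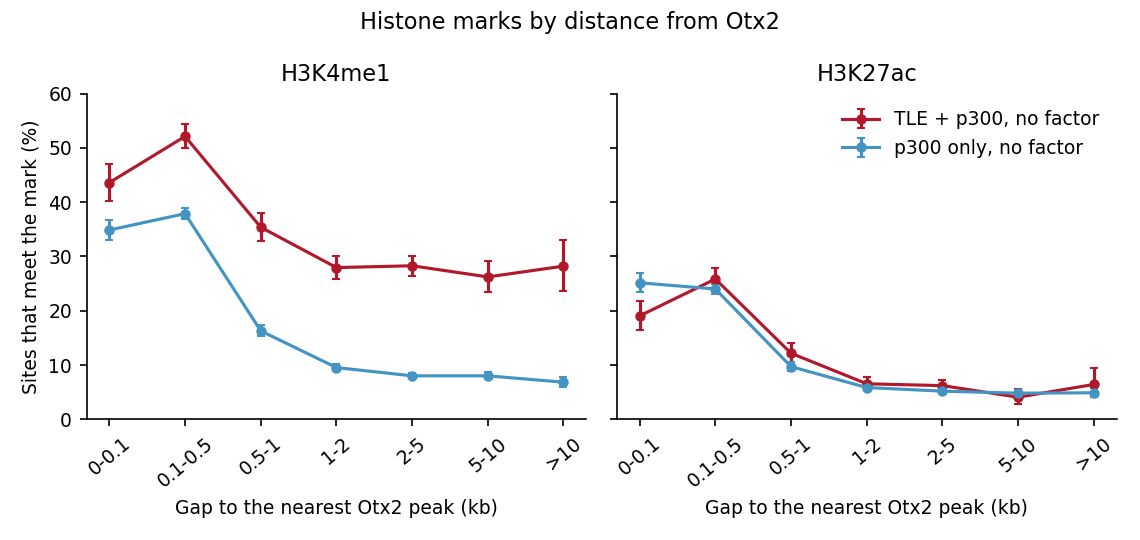
Share of sites that met H3K4me1 (left) and H3K27ac (right), in percent, by gap to the nearest Otx2 peak (horizontal axis, kb), for factor-free shared sites (red) and p300 sites without TLE or a factor (blue), with 95% exact binomial intervals. Beyond 10 kb H3K4me1 was met by 28.2% of the red and 6.86% of the blue sites, and H3K27ac by 6.45 and 4.92%.

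The widening of the H3K4me1 difference with distance was tested by comparing odds ratios, which was also chosen after seeing the data. Within 1 kb of an Otx2 peak, H3K4me1 was met by 44.8% of factor-free shared sites and 30.2% of p300 sites without TLE or a factor, an odds ratio of 1.79 (1.67 to 1.91) within strata of width. With no Otx2 peak within 1 kb the shares were 27.8 and 8.31% and the odds ratio 3.92 (3.64 to 4.22). The ratio of these odds ratios was 2.20 (1.98 to 2.43). For H3K27ac the odds ratios were 0.982 (0.901 to 1.07) and 1.07 (0.948 to 1.22), and their ratio was 1.09 (0.940 to 1.27), which was not called. When sites with any factor within 1 kb were set aside, 5049 shared sites remained. Of these, 27.4% (26.2 to 28.7) met H3K4me1 against 7.47% of 24991 p300 sites without TLE, an odds ratio of 4.33 (4.0 to 4.68). H3K27ac was met by 5.59% (4.97 to 6.25) and 3.85%, an odds ratio of 1.37 (1.20 to 1.58), and by 12.9% (11.2 to 14.8) of the sites with H3K4me1.

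The H3K4me1 of these sites came in domains of ordinary strength. Most of these domains held no Otx2 peak, like most H3K4me1 domains, but the choice of sites sets that share in part. The 3479 marked sites met 3396 H3K4me1 domains with a median width of 556.5 bp and a median fold of 2.89, and 96 domains met more than 1 site. The median over all 91211 chromosomal H3K4me1 domains was 363 bp with a fold of 2.83. An Otx2 peak was present in 31.6% of the domains with a factor-free shared site, in 41.4% of the 6879 domains with a p300 site without TLE or a factor, and in 46.9% of all domains. H3K27ac was met by 46.4% of the domains with a shared site, 54.2% of those with such a p300 site and 41.7% of all. The same domain can hold sites of several classes, so these shares are not independent. By the rule, neither a factor-free shared site nor a p300 site without TLE or a factor can itself meet an Otx2 peak. The Otx2 shares of their domains are therefore set in part by the choice of sites. No difference from the 46.9% of all domains is drawn from them. The 1179 H3K27ac domains with a shared site had a median width of 366 bp, and 79.6% of them met an H3K4me1 domain. The corresponding values were 442 bp and 71.7% for domains with a p300 site without TLE or a factor, 463 bp and 90.5% for those with a TLE and p300 site with a factor, and 276 bp and 52.7% for all H3K27ac domains. Including the marked sites, an H3K4me1 domain lay within 1 kb of 55.4% (54.4 to 56.4) of factor-free shared sites and of 31.6% (31.2 to 32.0) of p300 sites without TLE, and an H3K27ac domain within 1 kb of 37.8% and 23.9%.

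The 10 sites strongest in both coregulators, ranked by the lower of their p300 and TLE fold percentiles, were spread over 8 chromosomes. Their p300 folds ran from 7.27 to 10.4 and their TLE folds from 16.8 to 23.7, with p300 widths of 111 to 314 bp. The nearest Otx2 peak was 631 to 8172 bp away, and none of their TLE intervals met a factor. H3K4me1 was met by 4 of the 10 and H3K27ac by 0, numbers too small to set apart from the 35.3 and 12.1% of all factor-free shared sites. Coordinates are those of the lists, counted from 1, on a build that is not named, so no gene or annotation is assigned. The first site lay on chromosome 6 from 67591944 to 67592118 inside a TLE interval from 67591877 to 67592140, with a p300 fold of 10.4 and a TLE fold of 20.6. Its summits were 4 bp apart, the nearest Otx2 peak was 2852 bp away, and domains of H3K4me1 and H3K27ac began 395 and 420 bp away. The second, on chromosome 6 from 97820017 to 97820127, had folds of 8.80 and 23.7 and lay 5690 bp from the nearest H3K4me1 domain.

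Of these sites, 4 met an H3K4me1 domain and lay close to an H3K27ac domain without meeting it. The site on chromosome 2 from 77153067 to 77153180 had folds of 8.21 for p300 and 21.3 for TLE, with both summits at the same base and H3K27ac 316 bp away. On chromosome 8 the site from 36122601 to 36122768 had folds of 8.03 and 20.01 and lay 196 bp from H3K27ac. On chromosome 5 the site from 80930205 to 80930380 had folds of 7.71 and 18.6 and lay 11 bp from H3K27ac. The site on chromosome 7 from 44148442 to 44148715, with folds of 7.51 and 17.0 and both summits at the same base, lay 330 bp from H3K27ac. Apart from the first, the unmarked sites of the 10 lay 5287 to 26268 bp from H3K27ac.

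Single extremes were chosen for 1 value each. The highest p300 fold, 31.2, was on chromosome 3 from 42194624 to 42194806, where the TLE fold was 4.84 and H3K4me1 was met. The highest TLE fold, 28.4, was on chromosome 8 from 45821765 to 45821998, where the p300 fold was 5.74 and H3K4me1 was met. The widest site, 706 bp with 4 p300 summits, lay on chromosome 3 from 131791630 to 131792335, met H3K27ac but not H3K4me1, and was 123 bp from an Otx2 peak. The site farthest from any Otx2 peak lay on chromosome 9 from 58867616 to 58867710, 94465 bp from Otx2 and 90632 bp from the nearest H3K4me1 domain, with a p300 fold of 5.36 and a TLE fold of 20.4.

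Most factor-free shared sites had no other such site nearby, which depends on their number and was not compared with another class. The median gap to the nearest other such site was 27067 bp, and 7.50% (6.99 to 8.04) had one within 1 kb. They occurred in 5844 of the 12667 windows of 100 kb that held a p300 interval, 3402 of them with a single site. The window with the most lay on chromosome 1 from 178500001 to 178600000 and held 17 sites, followed by 12 in a window on chromosome 8. The chromosome 1 window was dense in calls of most libraries, which were not checked against the inputs or a genome sequence. Its 17 sites had a median p300 fold of 2.22 and TLE fold of 4.14, 11 met H3K27ac and 4 H3K4me1, and every Otx2 gap was between 192 and 446 bp. The window also held 79 p300, 60 Otx2, 52 TLE, 40 H3K27ac and 39 H3K4me1 intervals.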

How the data were processed

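The 7 deposited peak lists were analysed as they stand, without the inputs. The submitters' processing notes name MACS2 and deepTools but give no versions. For the aligner, build and read filters, the sources used here say nothing. Per the file layout, each line deposited by the authors gives a fold enrichment (a ratio of signal to local background), a −log10 p, a −log10 q and a score, which equals 10 times the −log10 q without decimals. The narrow lists (p300, TLE, Gsc) add the summit's offset as deposited. Repeated narrow intervals were reduced to 1, represented by the summit of highest fold.

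Overlap means at least 1 bp, and a gap is the number of bases between interval ends. Shares carry exact (Clopper-Pearson) 95% intervals and medians exact binomial ones. Odds ratios are Mantel-Haenszel estimates over 10 width strata with Robins-Breslow-Greenland intervals. No p-value is given, because each antibody has 1 library. The procedures were tested on simulated data, using Python 3.11.15, numpy 2.4.6, pandas 2.3.3 and scipy 1.17.1.

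The regions, classes, alternatives and the rule for named regions (the 10 highest by lower fold percentile, 4 single extremes and the densest 100 kb window) were chosen with earlier results of these data known. The gene table supplied is of UCB_Xtro_10.0, whose genes extend over 1 Mb beyond the final peak on 10 of 10 chromosomes, so genes, sequences and motifs were not used here.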

Additional observations from a re-analysis of the deposited data

How the results depend on the processing

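Of 189 values under alternatives, 127 were counted as kept. A ratio was kept where its direction and call held, and a share or median where it stayed within the interval of the reported value. The number of sites has no interval, and 4 of its 7 alternatives were kept because they lay within a set fold of the reported 9868. No paired analysis was possible because there are no replicate libraries. Ratios of H3K27ac among H3K4me1 sites and the strata by Otx2 gap were chosen after seeing the data. Below, "with factor", "p300 only" and "TLE only" name the class that the factor-free shared sites were set against. The cause of each change was not tested. The setting with every list strict takes in sites with weaker factor peaks and also limits the mark peaks.

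With p300 and TLE strict (−log10 q of at least 10), the sites numbered 376, their median width was 172 bp, summit distance 14.5 bp and Otx2 gap 1082 bp, and 44.9% met H3K4me1, 18.6% H3K27ac and 32.0% of H3K4me1 sites H3K27ac. The ratios were 1.03 for H3K27ac (with factor), 0.972 for summits within 50 bp, and 0.912 (with factor) and 0.811 (p300 only) for H3K27ac among H3K4me1 sites. With every list strict, the same quantities were 18356 sites, 269 bp, 17 bp, 34911 bp, 5.22, 9.80 and 19.8%. The ratios were 1.14 (with factor) and 0.827 (p300 only) for H3K27ac, 0.858 (with factor) and 0.602 (p300 only) for H3K4me1, and 1.57 (p300 only) for H3K27ac among H3K4me1 sites.

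With no factor within 1 kb, 5049 sites remained, with 27.4% for H3K4me1, 5.59% for H3K27ac and 12.9% for H3K27ac among H3K4me1 sites, an H3K4me1 ratio of 0.677 (with factor) and a summit ratio of 0.967. With Otx2 alone as the excluded factor, H3K27ac was 13.7% of all and 27.7% of H3K4me1 sites, with ratios of 1.01 (with factor) and 0.887 (p300 only), and the H3K4me1 ratio was 1.07 (with factor). With scaffolds, these shares were 13.0 and 27.4%, and that H3K4me1 ratio was 0.946. With summits within 200 bp in place of overlap, H3K27ac was 12.8%, the H3K4me1 ratio 1.06 (with factor), the width 109 bp, the summit distance 25 bp and the Otx2 gap 1228 bp. With an overlap of at least 50%, the summit distance was 21 bp and the H3K27ac ratio 1.07 (p300 only).

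With marks counted at the summit, H3K4me1 was 28.5%, H3K27ac 8.48% and 20.6% of H3K4me1 sites, with ratios of 0.943 for H3K27ac (p300 only) and 1.06 for H3K4me1 (with factor). With mark peaks of −log10 q of at least 2, they were 29.3, 8.37 and 21.3%, with an H3K27ac ratio of 1.07 (p300 only). Fold strata gave 1.05 for H3K27ac (p300 only), 0.826 for H3K4me1 (with factor) and 1.11 for summits. Joint strata of width and fold gave 0.949 and of width and Otx2 gap 1.02 for H3K27ac (p300 only), and no strata 0.520 for H3K4me1 (with factor). Without sites whose TLE interval met a factor peak, the nearest Otx2 peak met TLE at 64.7% and p300 at 62.8%, and a site with a factor lay within 1 kb of 21.4%. The lists hold no read depth, so a factor peak missing from a list was not detectable at that depth or threshold, and is not shown to be absent.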
